A study of Homo sapiens with 10 samples.

Results

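The YPEL genes (Yippee-like, YPEL1 to YPEL5) were chosen by symbol, because YPEL3 was higher with OR21 in every cell line of the series. All 5 members were found among the 17687 genes measured, with 1 probe set each. The series holds 10 arrays of 4 established myeloid lines. Treated cells received OR21 (the compound OR-2100, which the series title calls a hypomethylating agent) for 96 hours, at 500 nM in HL60 (acute myeloid leukaemia) and K562 (chronic myeloid leukaemia) and at 100 nM in MDSL and SKM1 (both from myelodysplastic disease). The 2 derivatives of HL60, labelled AZA resistant and OR21 resistant, were grown without treatment, and the labels do not say whether either is a single clone. Each of the 4 lines also gave 1 untreated control array, which for HL60 is the parental line. Every condition of every line rests on 1 array, so no spread within a line was measured.

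Yippee-like proteins are small zinc-binding proteins found in nearly all eukaryotes. YPEL1 to YPEL4 are close relatives of each other, and YPEL5 is the more distant member. YPEL3 was first described in mouse myeloid cells as a short-lived protein linked to apoptosis on loss of growth factor. In human cells it is known as a gene that p53 can induce, that halts growth when forced on, and whose promoter was reported to be methylated in some tumours. YPEL5 binds RANBP9, a scaffold of the CTLH complex, a multi-subunit ubiquitin ligase. HL60 and K562 are both known to lack functional p53.

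The windows around the start of transcription are shown for the members with the largest differences, YPEL3 and YPEL5, and for YPEL4, the member at background. Each runs from 250 bases before to 50 bases after the gene start, 5′ to 3′ on the gene's strand, from RefSeq on GRCh38.p14, with CpG dinucleotides in capitals. YPEL3 lies at chr16:30096164-30096463 on the minus strand, YPEL5 at chr2:30146757-30147056 on the plus strand and YPEL4 at chr11:57649863-57650162 on the minus strand.
YPEL3: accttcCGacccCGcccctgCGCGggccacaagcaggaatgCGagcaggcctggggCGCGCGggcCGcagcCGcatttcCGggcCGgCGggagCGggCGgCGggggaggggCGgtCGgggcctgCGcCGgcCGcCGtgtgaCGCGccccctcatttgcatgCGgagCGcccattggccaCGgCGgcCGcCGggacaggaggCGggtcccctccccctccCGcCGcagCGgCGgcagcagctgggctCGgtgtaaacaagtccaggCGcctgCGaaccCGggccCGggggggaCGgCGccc
YPEL5: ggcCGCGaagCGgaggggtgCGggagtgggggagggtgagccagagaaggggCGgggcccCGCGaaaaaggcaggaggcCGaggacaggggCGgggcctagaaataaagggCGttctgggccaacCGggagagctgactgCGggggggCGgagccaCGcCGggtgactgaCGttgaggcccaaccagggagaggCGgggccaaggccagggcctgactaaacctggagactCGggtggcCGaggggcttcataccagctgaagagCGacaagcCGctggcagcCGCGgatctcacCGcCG
YPEL4: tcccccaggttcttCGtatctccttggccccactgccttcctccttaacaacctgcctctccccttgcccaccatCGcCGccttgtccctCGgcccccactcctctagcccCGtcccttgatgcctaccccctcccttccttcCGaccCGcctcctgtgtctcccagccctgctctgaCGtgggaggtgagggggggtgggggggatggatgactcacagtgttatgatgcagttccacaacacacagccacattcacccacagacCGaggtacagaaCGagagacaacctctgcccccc

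The YPEL3 window held 42 CpG dinucleotides, more than 92.3% of the 15843 protein-coding promoter windows of the same length, whose median was 22. The YPEL2 window held 33, that of YPEL5 25 and that of YPEL4 10, which was more than 27.0% of promoters. No methylation was measured in this series. The letters GGGCGG, a GC box, were searched on both strands and occurred 3 times each in the windows of YPEL2, YPEL3 and YPEL5 and not in that of YPEL4, where 58.5% of all promoters held them. CCAAT occurred 1 time each in YPEL2 and YPEL3, against 36.4% of promoters. GTAAACA, the core of a forkhead factor motif, was found in the YPEL3 window alone among the 4 and in 2.6% of promoters, and TATAAA was in none of the 4 and in 9.6% of promoters. These motifs were picked after the windows had been read, and a match is a description of letters.

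Among the arrays, treated HL60 was unlike the rest in its 4 hybridisation spikes, which averaged 11.71 log2 there and 10.85 to 11.10 elsewhere. The background median of control MDSL was 4.98 log2, lower than the 5.41 to 5.43 seen on the remaining 9 arrays. Of the fixed lineage markers, the granulocyte enzyme gene MPO stood at 17.01 log2 in control HL60 and 17.08 in control SKM1, the erythroid factor gene GATA1 at 13.14 in control K562, and the progenitor antigen gene CD34 at 14.68 in control MDSL. SKM1 controls had the monocyte receptor gene CSF1R at 11.35 log2 and CD14 at 5.92. Of 4 measured fibroblast and endothelial markers, KDR and CDH5 lay under background on all 10 arrays, while DCN was above it on 4 and COL1A1 on 3. Of 4 lymphocyte markers, MS4A1 lay under background on all 10, CD3D was above it on 4, and CD3E and CD79A were above it on all 10, CD79A at 11.49 log2 in control MDSL. Of 5 epithelial markers, CLDN4 and ESRP1 were under background on all 10 arrays, CDH1 was above it on 1 and KRT19 on 10, and EPCAM stood at 13.31 log2 in control K562 and 12.46 in control SKM1.

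YPEL3 was high on all 4 treated arrays. Its log2 level with OR21 was 12.46 in HL60, 12.55 in K562, 12.20 in MDSL and 11.30 in SKM1. The controls stood at 6.62 log2 in HL60, 6.98 in K562, 10.37 in MDSL and 8.22 in SKM1. The treated and control groups did not overlap, as was the case with treated values higher for 1.38% of all genes. In RNA from whole cultures, more expressing cells and more RNA per cell cannot be told apart.

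The treated levels of YPEL3 lay within 1.25 log2 of each other and the controls within 3.75. On the treated HL60 array YPEL3 was brighter than 93.5% of genes, and on the control HL60 array brighter than 49.7%. The controls ran upwards from HL60 through K562 and SKM1 to MDSL, and MDSL had the smallest difference of the 4 lines. A difference contains the control level, so this order of controls and differences is not independent of it.

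The differences of YPEL3, treated minus control, were 5.84 log2 in HL60 (57.4-fold), 5.57 in K562 (47.4-fold), 3.08 in SKM1 (8.44-fold) and 1.83 in MDSL (3.56-fold), with a mean of 4.08 ± 1.95 log2 (SD, n = 4 lines). Only 10 genes had a larger difference in K562 and 43 in HL60, against 137 in SKM1 and 396 in MDSL. These values chose the family and carry no test. YPEL3 was the only member at least 2-fold higher in all 4 lines, as were 0.424% of all genes. With arrays scaled to their hybridisation spikes the HL60 difference was 5.08 log2 (33.9-fold), below that of K562 at 5.67.

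Lineage markers differed between treated and control arrays alongside YPEL3. The summed intensity of 3 granulocyte markers was 16.11 log2 in treated and 17.45 in control HL60, 16.45 and 17.67 in SKM1, 14.22 and 13.90 in MDSL, and 6.63 and 7.22 in K562. That of 4 monocyte markers was 18.27 log2 in treated and 17.71 in control HL60, 17.41 and 17.06 in SKM1, 15.84 and 15.26 in MDSL, and 13.08 and 12.10 in K562. Single markers moved further than these sums, which follow their brightest gene. In HL60, CD14 differed by 6.97 log2, the integrin gene ITGAM by 3.92, CSF1R by 3.10 and the granule protease gene PRTN3 by -3.30. The progenitor marker gene GATA2 differed there by 3.27, and the HL60 controls of CD34, KIT and ITGA2B lay under background. In SKM1, ITGAM differed by 4.16, the megakaryocyte integrin gene ITGA2B by 3.94, GATA1 by 3.80 and PRTN3 by -2.75. The progenitor receptor gene KIT differed there by -2.38 and CSF1R by -0.32, but GATA2 by 2.88. CD34 differed by 2.10 in SKM1, with its control under background. In MDSL, MPO differed by 4.49 and ITGAM by 2.52, but the granule gene AZU1 by -0.56 and PRTN3 by -0.21. CD34 differed there by -0.98 and KIT by -2.00, but GATA1 by 1.89, ITGA2B by 1.71 and GATA2 by 1.49. In K562, where YPEL3 differed by 5.57, the 4 monocyte markers differed by 0.27 to 1.00 and GATA1 by 0.15. Of the progenitor and megakaryocyte markers in K562, KIT differed by 2.74, ITGA2B by 0.39, CD34 by -0.17 and GATA2 by -1.19. None of the markers passed limma's test over the 4 lines, which called 0.0396% of all genes higher and 0% lower, and their part in the YPEL differences was not tested.

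YPEL5, the partner of RANBP9, had the second largest mean difference of the family. With OR21 its log2 level was 12.90 in HL60, 12.31 in K562, 13.70 in MDSL and 12.52 in SKM1. Its controls stood at 9.74 log2 in HL60, 9.21 in K562, 13.06 in MDSL and 11.19 in SKM1. The groups overlapped, because control MDSL was higher than 3 of the 4 treated arrays.

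Within every line YPEL5 was higher with OR21, as were 12.2% of all genes. The differences were 3.17 log2 in HL60 (8.99-fold), 3.11 in K562 (8.60-fold), 1.32 in SKM1 (2.50-fold) and 0.64 in MDSL (1.56-fold), a mean of 2.06 ± 1.28 log2 (SD, n = 4 lines). MDSL was thus the line in which YPEL5 did not reach 2-fold, and without MDSL the members at least 2-fold higher in every line numbered 2, YPEL3 and YPEL5. With arrays scaled to spikes the HL60 difference was 2.41 log2 (5.30-fold) and that of K562, at 3.21 (9.24-fold), was then the largest. The 4 lines had the same order of differences in both genes, with HL60 first as measured and K562 first under spike scaling. In each line the difference of YPEL3 exceeded that of YPEL5, by 2.68 log2 in HL60, 2.46 in K562, 1.75 in SKM1 and 1.19 in MDSL.

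**Figure D1:**
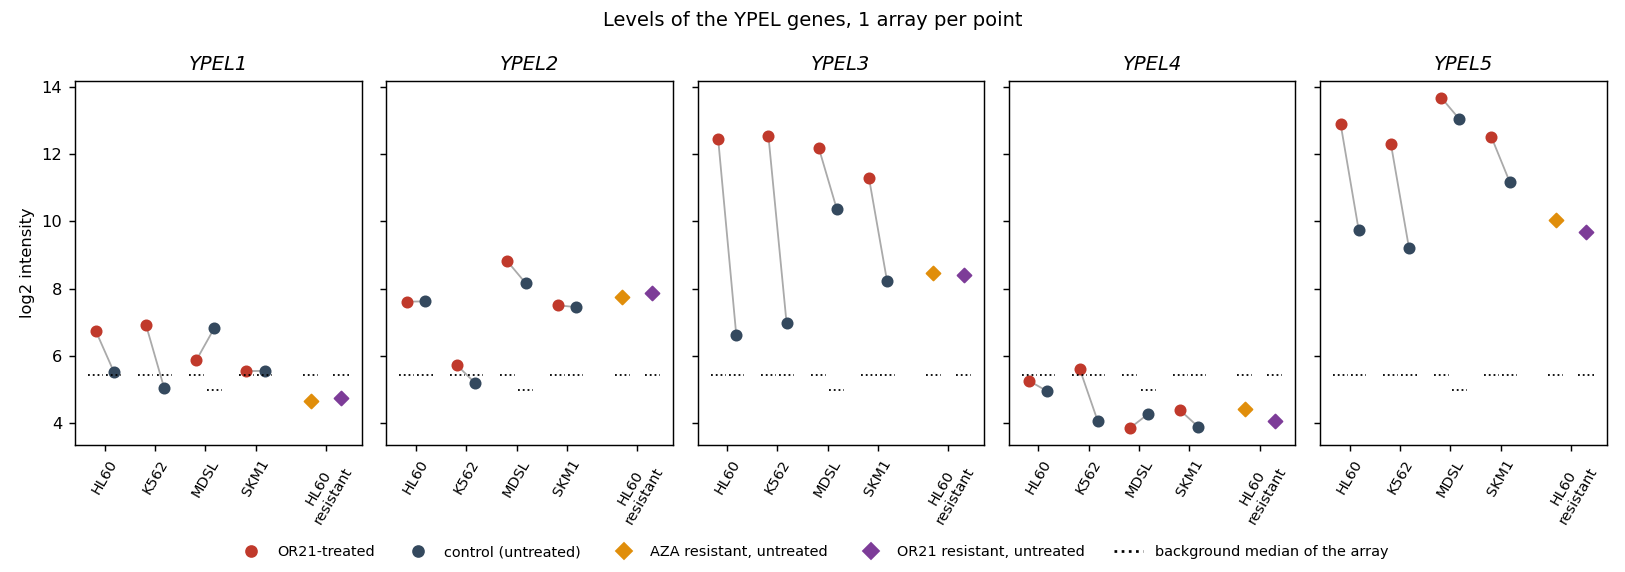
Log2 intensity of each YPEL gene on 10 arrays, with OR21-treated and control arrays of a line joined by a grey segment, resistant HL60 derivatives as diamonds and the background median of each array dotted. YPEL3 lies between 11.30 and 12.55 on the treated arrays and between 6.62 and 10.37 on the controls, and YPEL4 is above background on 1 of 10 arrays.

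YPEL1, whose mouse form is known to alter the shape of fibroblasts when forced on, was dim. It stood above background on 7 of 10 arrays. With OR21 its log2 level was 6.74 in HL60, 6.92 in K562, 5.86 in MDSL and 5.54 in SKM1. The controls were at 5.52 log2 in HL60, 5.04 in K562, 6.82 in MDSL and 5.54 in SKM1. Treated HL60 and K562 were higher than their controls, treated MDSL was lower and SKM1 was level, so the groups overlapped.

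The differences of YPEL1 were 1.22 log2 in HL60, 1.88 in K562, -0.97 in MDSL and 0.00 in SKM1. At least 2-fold higher genes were 10.2% of all in HL60 and 5.05% in K562, 6.62% in MDSL and 7.10% in SKM1. With arrays scaled to spikes the HL60 difference was 0.46 log2, under 2-fold. The K562 control was under background, and with that array at its background median the K562 difference was at least 1.50 log2. The MDSL control array was also the array with the lowest background, and the part of this in the MDSL difference was not tested.

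YPEL2, a close relative of YPEL1, differed little. With OR21 it had 7.61 log2 in HL60, 5.70 in K562, 8.81 in MDSL and 7.50 in SKM1. The controls had 7.62 log2 in HL60, 5.18 in K562, 8.16 in MDSL and 7.45 in SKM1. The level of YPEL2 followed the line rather than the treatment, with K562 lowest and MDSL highest in both groups. Its mean difference was 0.30 ± 0.33 log2 (SD, n = 4 lines), with no line at 2-fold. The K562 control was under the background median of its array, at 5.42, and with it at that median the K562 difference was at least 0.28 in place of 0.53. In HL60 the difference was -0.01 as measured and -0.77 with arrays scaled to spikes.

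YPEL4 was at background. Only treated K562, at 5.60 log2, lay above the background median of its array, at 5.41. The other 9 arrays ranged from 3.84 to 5.24 log2, all under background, so no difference between them is given. With the K562 control at its background median, YPEL4 was higher there by at least 0.18 log2.

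The question whether the lines at 500 nM and those at 100 nM differed in response was tested over all genes with limma. The rule for the family used the direction in each line and not this comparison. The comparison is built from the same differences per line, so for YPEL3 its interval and p are not independent of the choice. YPEL3 responded by 5.70 log2 on average in HL60 and K562 and by 2.45 in MDSL and SKM1, a difference of 3.25 log2 (95% interval 1.95 to 4.55, limma adjusted p = 0.877). For YPEL5 the means were 3.14 and 0.98 log2, a difference of 2.16 (95% interval 1.15 to 3.16, limma adjusted p = 0.877). YPEL1 had means of 1.55 at 500 nM and -0.49 at 100 nM, a difference of 2.03 log2 (95% interval 0.79 to 3.27, limma adjusted p = 0.877).

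None of these 3 passed after adjustment over all genes, although unadjusted intervals lay above 0. YPEL2 differed by -0.09 log2 (95% interval -1.15 to 0.97, limma adjusted p = 0.985). The K562 controls of YPEL1 and YPEL2 entered this fit at their measured values under background, and YPEL4 is left out because it was at background. Over all genes limma called 0 (0%) in this comparison and 968 had an unadjusted p under 0.05. Dose, disease and line cannot be told apart here, since both 500 nM lines are leukaemias and both 100 nM lines come from myelodysplasia.

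**Figure D2:**
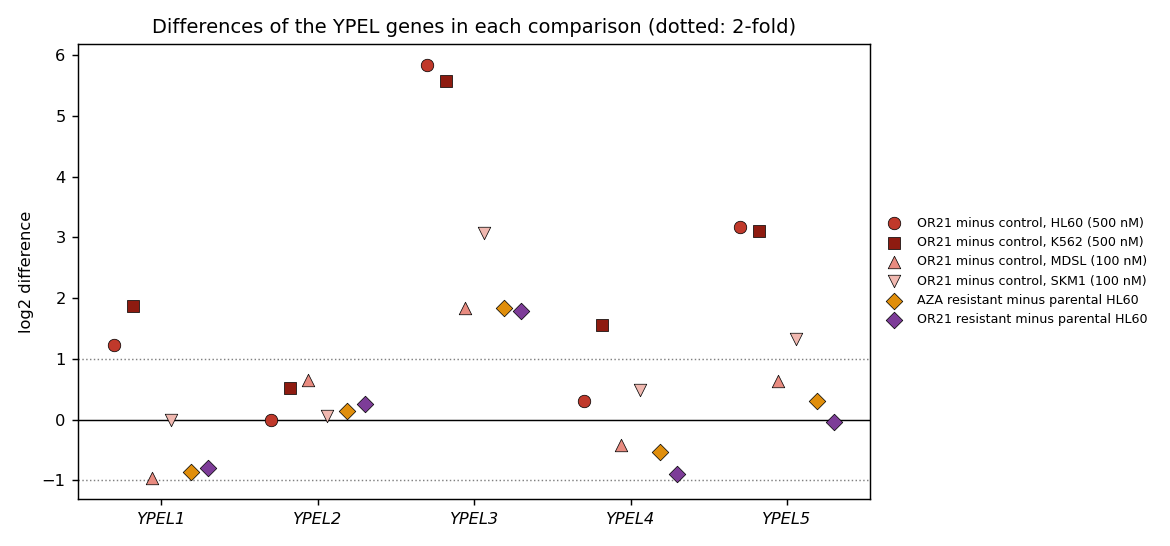
Log2 differences of each YPEL gene, OR21-treated minus control in 4 lines and resistant derivative minus parental in HL60, with 2-fold dotted. YPEL3 lies above 2-fold in all 6 comparisons, from 1.79 to 5.84, and YPEL5 in 3 of the 4 lines and in neither derivative. The YPEL4 points and the derivative points of YPEL1 are differences of values at or under background and have no readable size.

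In the resistant derivatives of HL60, grown without treatment, YPEL3 was the only member at least 2-fold from parental cells. Its log2 level was 8.46 in the AZA resistant and 8.40 in the OR21 resistant derivative, against 6.62 in parental HL60. The differences were 1.85 log2 (3.59-fold) and 1.79 log2 (3.45-fold). At least 2-fold higher genes were 7.04% of all in the AZA resistant derivative and 7.69% in the OR21 resistant one, and 5.82% in both.

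Both derivatives remained below OR21-treated HL60, which had 12.46 log2, with differences of -4.00 for AZA resistant and -4.06 for OR21 resistant cells. Set against each other, OR21 resistant and AZA resistant cells differed by -0.06 log2 in YPEL3. Both comparisons and that of treated HL60 share 1 parental control array, and none has a replicate. Lineage markers differed from parental cells here too, with PRTN3 at -4.15 log2 in AZA resistant and -3.88 in OR21 resistant cells, AZU1 at -2.52 and -2.58, CSF1R at 1.67 and 2.48, and CD14 at 0.37 and 3.07. Their part in the YPEL3 difference was not tested.

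YPEL5 did not share this difference. It stood at 10.04 log2 in AZA resistant and 9.69 in OR21 resistant cells, against 9.74 in parental cells, differences of 0.30 and -0.04. YPEL2 stood at 7.75 and 7.87 log2 against 7.62. YPEL1 was at 4.65 and 4.72 log2 in the derivatives, under background, against 5.52 in parental cells, which is 0.11 above background, so its differences are limited by background. YPEL4 was under background in all 3.

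The arrays were then searched for genes whose levels followed those of YPEL3 and YPEL5 over the 10 arrays. The likeness is given by Pearson's r, over arrays that share lines and 1 of which is the HL60 array that stood apart, and is a description. Among the 13043 genes with a range of at least 1 log2, those most like YPEL3 were the endonuclease gene DNASE1 (r = 0.96), the transcriptional repressor gene HBP1 (0.93), TSPYL2, which encodes a nucleosome assembly protein (0.92), the autophagy receptor gene NBR1 (0.92) and YPEL5 itself (0.90).

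The genes most like YPEL5 were HBP1 (r = 0.99), the histone H4 methyltransferase gene KMT5B (0.98) and DNASE1 (0.94). HBP1 had log2 levels with OR21 of 12.48 in HL60, 12.41 in K562, 12.92 in MDSL and 12.25 in SKM1. Its controls were at 10.72 in HL60, 10.43 in K562, 12.57 in MDSL and 11.44 in SKM1, and the derivatives at 10.79 (AZA resistant) and 11.00 (OR21 resistant). As for YPEL5, control MDSL was as high as the treated arrays and both derivatives were near parental HL60.

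The genes most like YPEL1, itself above background on 7 of 10 arrays, were CA11, ERBIN and ZNF699 (r from 0.89 to 0.93). Those most like YPEL2 were PLEK, HIF1AN and ZNF570 (0.98 each). PLEK and ZNF570 lay under background on both K562 arrays, where YPEL2 was at 5.18 log2 in control and 5.70 in treated cells. Those most like YPEL4 were LCMT1, C1QC and MLXIPL (0.90 to 0.94), which rests on YPEL4 values at background. Between members, r over 10 arrays was 0.76 for YPEL1 and YPEL5, 0.71 for YPEL1 and YPEL3, and 0.19 for YPEL2 and YPEL3.

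**Figure D3:**
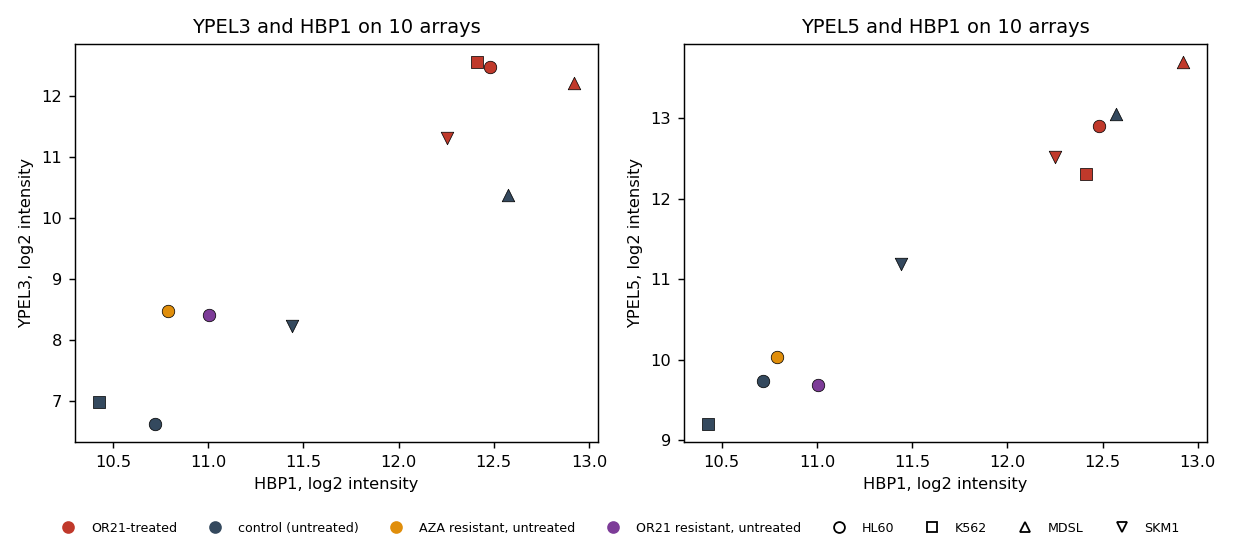
Log2 intensity of YPEL3 (left) and YPEL5 (right) against that of HBP1 on 10 arrays, coloured by group and with the line as the marker shape. YPEL5 and HBP1 lie close to a straight line (r = 0.99), though not in the same order of arrays, with control MDSL among the treated arrays, whereas YPEL3 in control MDSL, at 10.37, lies below all 4 treated arrays.

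The CTLH ubiquitin ligase, to which YPEL5 is tied through RANBP9, was measured through 9 subunits of 10 listed. The median of their mean differences was 0.28 log2, beside -0.02 for all genes, and 6 of the 9 were higher on average, as were 47.6% of all genes. Limma's test over the 4 lines passed 0 of them in either direction and 1 at an unadjusted p under 0.05. Over all genes it called 0.0396% higher and 0% lower, so a count of 0 in a list of this size says nothing about its members, here and in the lists that follow. MKLN1, the kelch-repeat subunit muskelin, differed by 0.65 ± 0.27 log2 (SD, n = 4 lines, limma adjusted p = 0.159), RMND5B, a RING-type subunit, by 0.34 ± 0.24, and RANBP9 by 0.32 ± 0.12. GID8, a scaffold subunit, differed by -0.36 ± 0.08. In the resistant derivatives GID8 was the lowest subunit, at -1.53 log2 in AZA resistant and -1.50 in OR21 resistant against parental cells. At least 2-fold lower were 5.11% and 4.27% of all genes. MAEA was next, at -0.96 and -0.95, and the median of the 9 subunits was -0.48 and -0.22.

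The RNA of proteins that the CTLH ligase is reported to act on, or to use as adaptors, went in different directions. No protein was measured. HBP1, a reported target of the ligase, differed by 1.23 ± 0.78 log2 (SD, n = 4 lines, limma adjusted p = 0.136), with all 4 lines higher. The NAD synthesis gene NMNAT1 differed by 0.62 ± 0.66. UNG, the uracil DNA glycosylase, differed by -1.55 ± 0.84 (limma adjusted p = 0.122), with all 4 lines lower, and the sterol synthesis gene HMGCS1 differed by -0.87 ± 1.34. None of these 5 listed genes passed the test.

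The relatives that share the Yippee fold are cereblon, the target of thalidomide and its analogues, and the Mis18 proteins, which prepare centromeres for new CENP-A. CRBN, the cereblon gene, differed by -0.03 ± 0.16 log2 (SD, n = 4 lines). MIS18A differed by -1.48 log2 in MDSL, -1.30 in HL60 and -1.25 in SKM1, and by 0.02 in K562 (limma adjusted p = 0.156). OIP5, which encodes the other Mis18 protein, differed by -0.72 ± 0.56 (limma adjusted p = 0.202). The Mis18 partners HJURP and CENPA differed by -0.28 ± 1.08 and -0.46 ± 0.72. None of these 5 genes passed.

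Genes of growth arrest and quiescence had a median difference of 0.57 log2 over 16 measured of 18 listed, with 15 higher on average, 0 past the test in either direction and 6 higher at an unadjusted p under 0.05. Over all genes 47.6% were higher on average and 8.98% were higher at an unadjusted p under 0.05. TXNIP, an inhibitor of thioredoxin, differed by 1.39 ± 1.17 log2 (SD, n = 4 lines), the cyclin gene CCNG2 by 1.37 ± 1.66, the CDK inhibitor gene CDKN1C by 1.23 ± 0.65 and the forkhead factor gene FOXO3 by 0.92 ± 0.47. CCNG2 differed by 3.22 log2 in HL60 and 2.32 in K562 but by -0.16 in MDSL and 0.11 in SKM1. It was higher in both derivatives, by 1.64 (AZA resistant) and 1.56 (OR21 resistant). No other gene of the 16 was at least 2-fold higher in either derivative, and the list medians there were -0.24 and -0.11.

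Of the senescence and p53 list, 8 of 12 genes were measured and 0 passed the test in either direction. Their median difference was 0.33 log2, with 7 higher on average, as were 47.6% of all genes. At an unadjusted limma p under 0.05, 2 were higher and 1 was lower, where 8.98% of all genes were higher. Only CDKN1A was at least 2-fold higher in all 4 lines. CDKN1A, the p53 target that encodes the CDK inhibitor p21, differed by 4.22 log2 in HL60, 4.03 in MDSL and 3.48 in SKM1. In K562 it had 5.43 log2 in treated and 4.29 in control cells, the control under the background median of 5.42, so the K562 difference of 1.14 has no readable size. The mean of 3.21 ± 1.42 log2 (SD, n = 4 lines, limma adjusted p = 0.102) includes that value. In the derivatives CDKN1A differed by 0.09 and -0.04, where YPEL3 differed by 1.85 and 1.79. Parental HL60 had CDKN1A at 5.51 log2, near the background median of its array at 5.41, so a fall of CDKN1A in the derivatives could not be read.

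Each YPEL gene was also compared with its chromosomal neighbours, the 3 nearest measured coding genes on each side in RefSeq order. On chromosome 16 the 6 neighbours of YPEL3 had mean differences from -0.23 to 0.94 log2, and 0 passed the test. TBX6 and GDPD3, which flank YPEL3, lay under background on all 10 arrays. The kinase gene MAPK3, next beyond GDPD3, was higher in 4 of 4 lines, by 1.96 in HL60, 1.06 in K562, 0.53 in SKM1 and 0.20 in MDSL (limma adjusted p = 0.188).

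MAPK3 was also higher in both derivatives. Its log2 level was 12.35 in AZA resistant and 12.42 in OR21 resistant cells, against 10.81 in parental HL60, differences of 1.54 and 1.61. The phosphatase gene PPP4C, 2 measured genes to the other side of YPEL3, differed by 0.04 ± 0.14 log2 over the 4 lines (SD, n = 4 lines), and the glycolytic gene ALDOA by -0.23 ± 0.29. CD2BP2 differed by 0.17 ± 0.60.

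On chromosome 2 the nearest measured gene after YPEL5, the transcription cofactor gene LBH, differed by 1.78 ± 1.36 log2 (SD, n = 4 lines, limma adjusted p = 0.150), with its HL60 control under background. Its order of lines was not that of YPEL5, with 3.15 in MDSL, 2.61 in K562, 1.24 in HL60 (at least 1.08 with the control at its background median) and 0.13 in SKM1. LCLAT1, which follows LBH, differed by -0.63 ± 0.67, and the receptor kinase gene ALK, on the other side, by -0.52 ± 0.20. CLIP4 differed by 0.31 ± 0.92, PCARE by -0.15 ± 0.24, and CAPN13 was under background on all 10 arrays. In the AZA resistant and OR21 resistant derivatives, CLIP4 differed from parental HL60 by 1.46 and 1.72 log2, and LBH by 0.51 and 1.10. The parental values of CLIP4 and LBH lay under background.

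The neighbours of YPEL2 on chromosome 17 were PRR11, SMG8, GDPD1, DHX40, CLTC and TUBD1, with mean differences from -0.38 to 1.36 log2. GDPD1 gave the highest, and it was higher by 3.71 in MDSL and by 0.14 to 0.82 in the other 3 lines. Those of YPEL1 on chromosome 22 were CCDC116, SDF2L1, PPIL2, PPM1F, TOP3B and VPREB1, from -0.85 for the chaperone cofactor gene SDF2L1 to 0.29 for PPIL2, whose annotated end overlaps that of YPEL1. Those of YPEL4 on chromosome 11 were SMTNL1, UBE2L6, SERPING1, CLP1, ZDHHC5 and MED19, from -0.53 to 0.70, with the ubiquitin-conjugating gene UBE2L6 at 2.07 in K562. None of these 18 passed the test.

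**Figure D4:**
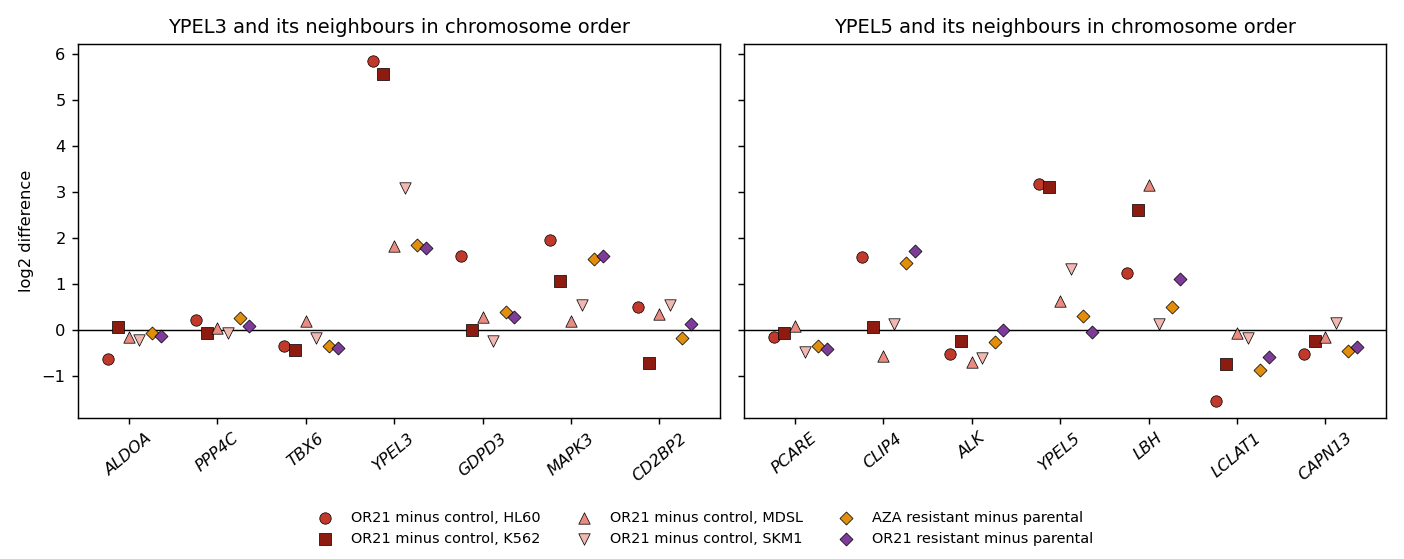
Log2 differences of YPEL3 (left) and YPEL5 (right) and of the 3 nearest measured coding genes on each side, in chromosome order, for OR21-treated minus control in 4 lines and for derivatives minus parental HL60. YPEL3 exceeds each of its 6 neighbours in every line and MAPK3 is the only neighbour of it above 1 in both derivatives. Beside YPEL5, LBH exceeds it in MDSL and CLIP4 is above 1 in both derivatives.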

How the data were processed

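Total RNA was labelled with biotin and hybridised, 1 array each. The authors deposited a linear intensity for each probe set, and the software and normalization are not given in the sources used here. Array quartiles lay close together, so the values were taken as already normalized by the authors and log2-transformed without a pseudocount. Of 24351 rows, the platform annotation named 17709, and the brightest probe set was kept for 20 genes with several, leaving 17687 genes. RefSeq gene identifiers agreed for 17249 of them. 0 columns belonged to no sample. Background was the median of 23 background probe sets per array.

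Members, gene lists and tests were chosen with earlier results of these data known. OR21 minus control was tested for genes outside the family, and its dependence on dose for all genes, with limma 3.58.1 in R 4.3.3 (cell line as block, 8 arrays, two-sided, Benjamini-Hochberg adjustment over all genes, threshold 0.05). The line is the replicate, and p-values measure the spread between lines, with 3 residual and 3.49 prior degrees of freedom in the first fit. Pairing came from the line each pair of arrays shares. Members got no p for OR21 minus control. The fits were tested on simulated data. The number of arrays limits the precision. Named genes were all members, 3 neighbours a side, the genes most alike over the arrays, and in each list those past the test or 2-fold in all lines, otherwise the 4 largest mean differences. Alternatives were quantile normalization, median centring, scaling to spikes, flooring at background, the mean of probe sets, no block, no dim genes, and leaving out each line. Single-array differences were counted as moved past 1.5-fold or across 2-fold.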

Additional observations from a re-analysis of the deposited data

How the results depend on the processing

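The mean differences of the 5 members kept their direction under every alternative tried. For YPEL4, above background on 1 of 10 arrays, this direction is not readable. Its mean floored at background, 0.16 log2, came mainly from MDSL, at 0.44. With a line left out, the mean was 3.49 to 4.83 log2 for YPEL3, 1.69 to 2.53 for YPEL5, 0.19 to 0.41 for YPEL2, and from the value without K562 to that without MDSL 0.08 to 1.03 for YPEL1 and 0.13 to 0.79 for YPEL4. The members at least 2-fold higher in every line numbered 1 to 2 with a line left out, 2 being without MDSL. The genes past limma's test, 7 as reported, numbered 240 with arrays scaled to spikes, 3 with values floored at background, 1 with no replicate block, and 0 to 5 with a line left out (1 without HL60, 5 without MDSL, 0 without SKM1, where 2181 had an unadjusted p under 0.05, and 2 without K562). The cause of these moves was not tested. No member passed the dose comparison under any alternative, with limma adjusted p from 0.163 upwards for YPEL3 and from 0.287 for YPEL5, and limma adjusted p = 1 with no replicate block for all 5. That difference turned from -0.09 to 0.18 for YPEL2 without HL60 and to 0.20 without MDSL (range -0.39 to 0.20 with a line left out). For YPEL4 it turned from 0.90 to -0.13 floored at background. Both MDSL values of YPEL4 lay under background. Their floored difference of 0.44 log2 is therefore that between the background medians, 4.98 in control and 5.42 in treated MDSL. For AZA resistant minus parental cells, YPEL1 moved to -1.07 under quantile normalization, -1.03 under median centring and -0.10 floored at background. For OR21 resistant minus parental cells, YPEL1 moved to -0.10 and YPEL4 to 0.0057 floored at background, and YPEL4 to -1.04 under median centring. The median difference over all genes became -0.22 log2 in HL60, -0.14 in K562, -0.09 in MDSL, -0.17 in SKM1, -0.18 in the AZA resistant and -0.22 in the OR21 resistant derivative under median centring, and -0.81 in HL60 and 0.10 in K562 under spike scaling. YPEL3 and YPEL5 were higher with OR21 in all 4 lines under each of these scalings. Background limits YPEL1 and YPEL4, and YPEL2 in control K562.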
